A study of Mus musculus with 42 samples.

Results

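Among the genes counted in MC38 tumors after PD-1 blockade, 4 are described here: Kcne3, Ip6k3, Ctxn1 and Apbb1. Their mean levels were low after aPD1 alone and higher when a second antibody was given with it. They are 4 of the 26811 genes counted, and all 4 passed the filter on low counts that left 16932 genes for testing. They were chosen for their levels in aPD1 tumors against isotype tumors and against tumors given a blocking antibody, so those 4 comparisons are described here without a test. Comparisons among the other 4 groups, between tumors of lower and higher replicate number, and between tumors within a group were tested.

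MC38 is a mouse colon carcinoma line, and its cells were injected under the skin of female F1 mice of CC075/UncJ and C57BL/6J parents (CC75×B6), aged 8 to 12 weeks. Bulk poly(A) RNA was sequenced from 42 tumors, so that host and tumor RNA are counted together. Isotype tumors (n = 5) came from mice given control antibodies only. Tumors of the aPD1 group (n = 6) came from mice given 200 μg of anti-PD-1 and isotype controls of the blocking antibodies. The 3 other groups also had aPD1, preceded by 100 μg of a GM-CSF antibody (aPD1 + aGM-CSF, n = 9), 200 μg of an antibody to the IL-2 receptor β subunit (aPD1 + aIL2RB, n = 11) or both (aPD1 + aGM-CSF + aIL2RB, n = 11). Blocking antibodies or their controls were given every 3 days from engraftment until tumors measured 75 to 110 mm3, and a single dose of aPD1 or its control followed 48 h before collection. Every group shares the line and the mouse cross, and no group had a blocking antibody without aPD1. The labels call the tumors biological replicates, and p-values measure the spread between them.

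The members come from unrelated families. Kcne3 encodes a small membrane protein that joins the pore subunits of voltage-gated potassium channels and sets their gating. With the pore subunit Kcnq1 it forms the basolateral potassium channel of colon and airway epithelium that sustains chloride secretion. Ip6k3 encodes an inositol hexakisphosphate kinase, which adds a further phosphate to inositol hexakisphosphate to make an inositol pyrophosphate, and its transcript is known from skeletal muscle. Ctxn1 encodes cortexin 1, a short membrane protein known from neurons of the cerebral cortex. Apbb1 encodes FE65, an adaptor that binds the cytoplasmic tail of the amyloid precursor protein (APP) and the histone acetyltransferase Kat5.

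In GRCm38, Kcne3 (ENSMUSG00000035165) lies at chr7:100176502-100184869 on the plus strand, and Apbb1 (ENSMUSG00000037032) lies on the minus strand of the same chromosome at chr7:105558483-105581653, 5.37 Mb away. Ip6k3 (ENSMUSG00000024210) lies at chr17:27143965-27167795 and Ctxn1 (ENSMUSG00000048644) at chr8:4257660-4259274, both on the minus strand. Kcne3 overlaps Gm34821, which is annotated on the opposite strand, and the use of strand in counting is not given in the sources used here. Whether reads of these genes were kept apart was not tested. The promoter windows below hold 250 bases before and 50 after an annotated start, from RefSeq's GRCm38.p6 tables, and are shown because the 4 genes were low in the same tumors. They lie at chr7:100178433-100178732 (Kcne3), chr17:27167715-27168014 (Ip6k3), chr8:4259225-4259524 (Ctxn1) and chr7:105569269-105569568 (Apbb1), and each is written 5′ to 3′ on the strand of its gene, with motif matches in capitals. The tables list 2 windows for Kcne3 and 3 for Apbb1, and those shown hold 6 of 8 and 5 of 21 annotated transcript starts.
Kcne3: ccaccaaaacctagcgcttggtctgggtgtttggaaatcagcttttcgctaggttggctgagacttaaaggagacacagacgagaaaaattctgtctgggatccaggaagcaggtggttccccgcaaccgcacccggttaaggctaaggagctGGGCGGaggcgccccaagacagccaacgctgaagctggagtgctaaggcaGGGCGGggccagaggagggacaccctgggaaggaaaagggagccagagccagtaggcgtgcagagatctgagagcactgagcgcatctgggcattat
Ip6k3: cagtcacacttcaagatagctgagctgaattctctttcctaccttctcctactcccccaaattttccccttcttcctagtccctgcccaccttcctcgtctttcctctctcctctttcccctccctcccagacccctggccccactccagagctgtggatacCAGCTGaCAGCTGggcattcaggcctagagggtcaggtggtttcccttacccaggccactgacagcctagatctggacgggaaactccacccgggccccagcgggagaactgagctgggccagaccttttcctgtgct
Ctxn1: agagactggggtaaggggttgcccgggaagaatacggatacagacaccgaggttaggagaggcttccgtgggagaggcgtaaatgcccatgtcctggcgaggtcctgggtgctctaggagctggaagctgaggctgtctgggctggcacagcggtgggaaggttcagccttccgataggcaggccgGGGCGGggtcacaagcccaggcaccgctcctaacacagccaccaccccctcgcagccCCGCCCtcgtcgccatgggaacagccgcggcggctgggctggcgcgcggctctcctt
Apbb1: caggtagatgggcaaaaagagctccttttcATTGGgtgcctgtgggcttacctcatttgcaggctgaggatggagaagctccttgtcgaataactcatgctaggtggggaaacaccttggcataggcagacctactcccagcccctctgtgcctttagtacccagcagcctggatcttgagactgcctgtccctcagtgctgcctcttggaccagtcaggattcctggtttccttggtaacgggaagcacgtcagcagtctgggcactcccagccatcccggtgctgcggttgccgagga

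6 short motifs were searched on both strands. The GC box GGGCGG was found in the windows of Kcne3 (positions -97 and -47 from the start) and Ctxn1 (-64, and -7 on the opposite strand), against 35.7% of 32851 windows of the same length. Ip6k3 held the E-box CAGCTG at positions -88 and -81, which 16.3% of windows hold, and Apbb1 held CCAAT at -220 on the opposite strand, which 37.4% hold. The interferon-gamma activated sequence TTCNNNGAA (8.3% of windows), the core of the interferon-stimulated response element (3.44%) and the TATA box TATAAA (13.6%) were in none of the 4 windows. No motif was held by all 4 genes, and these counts describe the windows only.

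Kcne3 was the member with the widest gap between aPD1 and isotype tumors. Its level in CPM, the TMM-normalized count set to a common library total, was 5.38, 4.97, 5.29, 5.28 and 4.58 in the isotype tumors, which lie close together. In the aPD1 tumors it was 1.43, 3.06, 1.86, 1.59, 1.65 and 1.69, so that even the highest of them was below the lowest isotype tumor. Means were 5.10 ± 0.330 CPM (SD, n = 5) and 1.88 ± 0.594 CPM (SD, n = 6). This was a log2 fold change of -1.44 (95% interval -1.93 to -0.95), or 2.72-fold lower. With aGM-CSF Kcne3 was at 3.55 to 7.16 CPM (median 5.28), all above the aPD1 tumors, and 2.79-fold higher than after aPD1 alone. With aIL2RB it was at 4.24 to 9.66 CPM (median 6.66), again without overlap and 3.61-fold higher. With both blocking antibodies it was at 2.57 to 8.37 CPM (median 6.78). A single tumor of this group, replicate 1 at 2.57 CPM, lay below the highest aPD1 tumor, and the next lowest was replicate 4 at 4.08 CPM. Raw counts of Kcne3 were 22 to 228 per tumor.

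Ip6k3 had the widest spread among isotype tumors. Isotype tumors had 15.6, 16.4, 5.04, 7.13 and 4.95 CPM, and aPD1 tumors 7.95, 6.12, 3.77, 1.85, 3.46 and 5.29 CPM. Replicates 1 and 2 were high, while the 3 other isotype tumors lay inside the range of the aPD1 group, so the groups overlap. The means were 9.83 ± 5.72 CPM (SD, n = 5) and 4.74 ± 2.16 CPM (SD, n = 6). The log2 fold change was -1.06 (95% interval -1.69 to -0.43), and -0.80 without isotype replicate 2. With aGM-CSF the tumors were at 8.51 to 14.3 CPM (median 12.7), all above the aPD1 group. The ranges with aIL2RB (3.13 to 16.2 CPM, median 12.5) and with both antibodies (6.02 to 17.4 CPM, median 12.0) overlapped it through replicates 9 and 10, respectively, at 3.13 and 6.02 CPM. Fold differences from aPD1 were 2.45 with aGM-CSF, 2.59 with aIL2RB and 2.65 with both.

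Ctxn1 and Apbb1 differed less. Ctxn1 was at 3.45, 5.66, 4.69, 3.71 and 4.62 CPM in isotype tumors and at 3.10, 2.64, 2.81, 2.80, 1.8 and 2.86 CPM in aPD1 tumors, which do not overlap. The log2 fold change was -0.72 (95% interval -1.16 to -0.29), or 1.65-fold lower. Apbb1 was at 5.62, 4.66, 3.83, 4.68 and 4.16 CPM in isotype tumors and at 3.04, 3.72, 2.86, 2.58, 3.16 and 1.5 CPM in aPD1 tumors, again without overlap, although 3.72 and 3.83 CPM are close. Its log2 fold change was -0.72 (95% interval -1.11 to -0.32), or 1.64-fold lower. Every blockade group overlapped the aPD1 group in both genes. Ctxn1 ranged from 2.83 to 4.61 CPM with aGM-CSF, from 2.37 to 5.73 CPM with aIL2RB and from 1.98 to 5.93 CPM with both, and the lowest of these was replicate 4, the tumor with the fewest counts. For Apbb1 these ranges were 3.14 to 4.92, 3.13 to 5.99 and 2.77 to 6.47 CPM. Fold differences from aPD1 were 1.41, 1.56 and 1.52 for Ctxn1 and 1.44, 1.45 and 1.44 for Apbb1, in the same order of groups. Within the sets of tumors described further on, values of both genes lay apart in some groups. With both antibodies the log2 fold change of Ctxn1 was 0.36 in the first set (95% interval -0.16 to 0.89) and 0.86 in the second (0.32 to 1.40). That of Apbb1 was 0.19 in the first set (95% interval -0.24 to 0.61) and 0.91 in the second (0.46 to 1.35), and with aGM-CSF it was 0.30 (-0.14 to 0.73) and 0.79 (0.33 to 1.25).

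Kcne3, Ctxn1 and Apbb1 did not overlap between aPD1 and isotype tumors and were lower, as were 1.13% of all tested genes. Higher levels without overlap after aPD1 + aGM-CSF were seen for Kcne3 and Ip6k3 (0.656% of genes), and after aPD1 + aIL2RB for Kcne3 (1.22%). With both antibodies no member cleared the aPD1 group (1.13% of genes did). The members were picked on these contrasts, and nothing follows from their count. The 4 contrasts also share the same 6 aPD1 tumors.

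**Figure D1:**
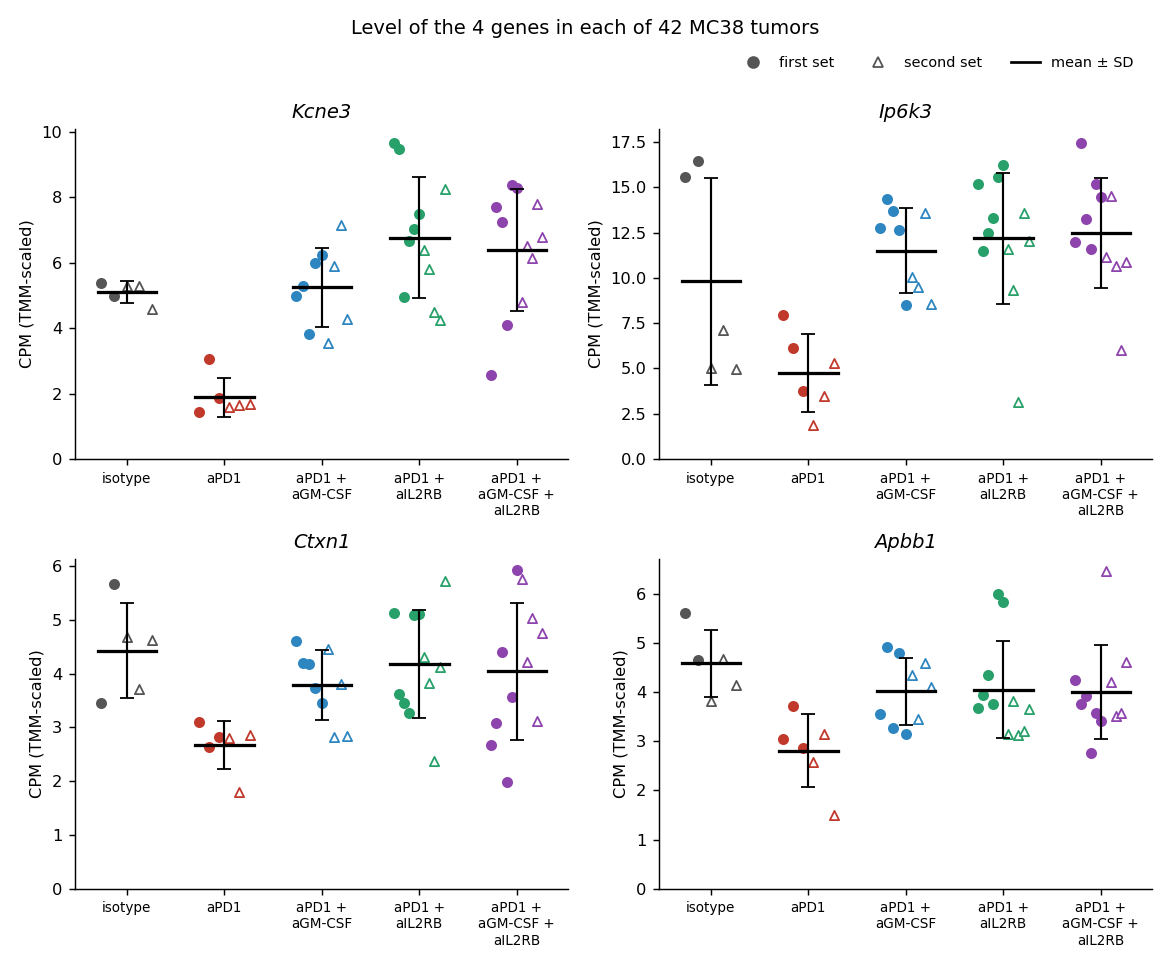
Level of each member in CPM (y axis) in every tumor of the 5 treatment groups (x axis), with points marked by set of replicate numbers and the group mean and SD drawn. Kcne3 in the 6 aPD1 tumors sits between 1.43 and 3.06 CPM, and Ip6k3 in isotype tumors falls into a pair near 16 CPM and a trio below 7.2 CPM.

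Levels in the aPD1 group were the lowest of the 5 groups for all members, which is what they were chosen for. The order of the other groups differed between members. Mean Kcne3 was 5.10 CPM in isotype, 5.24 CPM with aGM-CSF, 6.39 CPM with both antibodies and 6.76 CPM with aIL2RB. For Ip6k3 the order was isotype (9.83 CPM), aGM-CSF (11.5 CPM), aIL2RB (12.2 CPM) and both (12.5 CPM). Ctxn1 and Apbb1 had their highest means in isotype tumors, at 4.43 and 4.59 CPM. Their means with aGM-CSF, aIL2RB and both were 3.79, 4.19 and 4.05 CPM for Ctxn1 and 4.02, 4.05 and 4.01 CPM for Apbb1. No neighbors in these orders, the aPD1 group aside, differed beyond the spread between tumors in the tests that follow.

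Whether members differed from the isotype level when a blocking antibody was given with aPD1 was addressed by the comparisons that leave out the aPD1 group. The isotype and blockade tumors also entered the choice of the genes, so these tests are not independent of that choice. None of the 4 members passed an adjusted p of 0.05 in any of these 6 comparisons (edgeR quasi-likelihood test, adjusted over all 16932 genes). Kcne3 came closest, with log2 fold changes against isotype of 0.04 with aGM-CSF (95% interval -0.39 to 0.46, adjusted p = 0.99), 0.41 with aIL2RB (-0.00 to 0.82, adjusted p = 0.287) and 0.33 with both (-0.08 to 0.74, adjusted p = 0.303). Between aIL2RB and aGM-CSF Kcne3 differed by 0.37 (0.03 to 0.71, edgeR p = 0.0359, adjusted p = 0.325). Ip6k3 was above isotype by 0.23 (-0.33 to 0.79), 0.31 (-0.23 to 0.85) and 0.35 (-0.20 to 0.89), with edgeR adjusted p of 0.939, 0.583 and 0.437. Ctxn1 was below isotype by every antibody combination, at -0.23 (-0.62 to 0.17), -0.08 (-0.46 to 0.30) and -0.12 (-0.50 to 0.26), and Apbb1 at -0.19 (-0.55 to 0.16), -0.18 (-0.52 to 0.16) and -0.19 (-0.53 to 0.15). The smallest edgeR adjusted p of these 6 values was 0.496. The intervals are wide, and with aIL2RB they leave room for a Kcne3 level up to 1.76 times that of isotype tumors.

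Across all genes, no gene passed between aPD1 + aGM-CSF and isotype with edgeR (0%). The unadjusted p was under 0.05 for 938 genes, and DESeq2 called 5. Against isotype, 3.20% of genes passed with aIL2RB and 10.2% with both. Among the blockade groups 1.52%, 2.13% and 0.00591% of genes passed, for aIL2RB and both against aGM-CSF and for both against aIL2RB. These shares rest on few tumors. The 542 genes with aIL2RB were 226, 283, 349 and 284 without isotype replicate 4, 2, 3 or 5, 349 without aPD1 + aIL2RB replicate 1 and 960 without its replicate 9. The 1726 genes with both were 479 and 632 without isotype replicate 4 or 2. Against aGM-CSF, the 258 genes with aIL2RB ranged from 162 without aPD1 + aGM-CSF replicate 1 to 469 without aPD1 + aIL2RB replicate 9, and the 360 with both from 177 without aPD1 + aGM-CSF replicate 6 to 728 without aPD1 + aGM-CSF + aIL2RB replicate 1. Within the first and second set, described further on, the 258 genes were 531 and 30, the 360 were 80 and 1236, and the count between both and aIL2RB, 1 over all tumors, was 0 and 395. A count of 0 among 4 members is near the shares over all tumors.

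**Figure D2:**
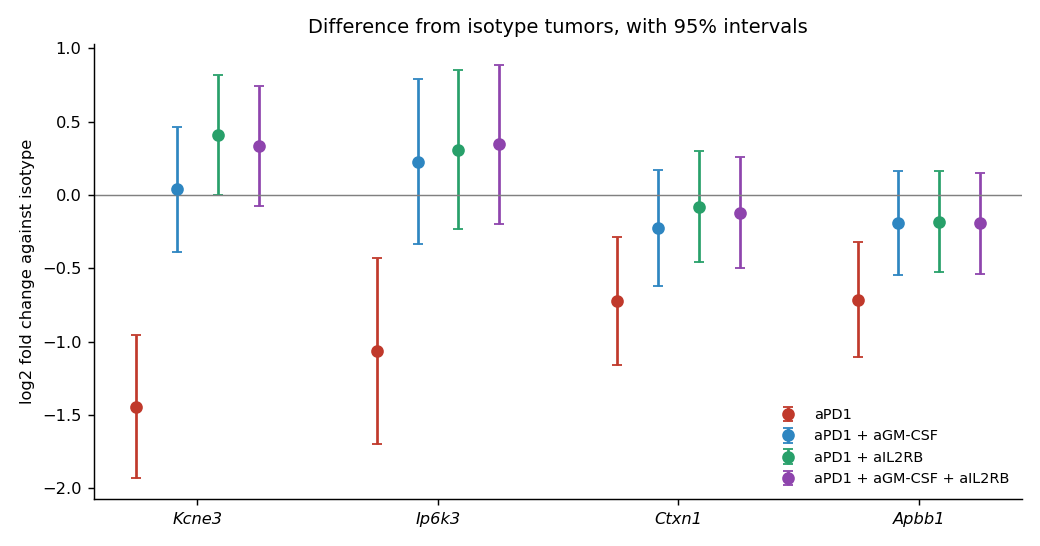
Log2 fold change against isotype (y axis) of each member (x axis) in the aPD1 group and the 3 blockade groups, with 95% intervals as bars. The aPD1 values lie between -1.44 and -0.72 and were used to choose the genes, while the intervals of the blockade groups all include 0.

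The tumors also parted along their replicate numbers into a first set of 22, with the lowest numbers of each group, and a second set of 20. The first set held 2 isotype, 3 aPD1 and 5 aPD1 + aGM-CSF tumors and 6 of each group given aIL2RB. Neither the labels nor the text of the study names such sets. They were seen in the expression values, and tests between them use the same values. Of the members, Ip6k3 differed between the sets. With treatment in the model it was lower in the second set, by -0.57 on the log2 scale (SE 0.13, 95% interval -0.83 to -0.30, edgeR adjusted p = 0.00132), where 25.1% of all genes passed. Kcne3 (-0.15, adjusted p = 0.372), Ctxn1 (-0.01, adjusted p = 0.95) and Apbb1 (-0.11, adjusted p = 0.43) did not pass in the same edgeR test.

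Mean Ip6k3 was lower in the second set in each of the 5 groups. It was 16 against 5.71 CPM in isotype, 5.94 against 3.53 CPM in aPD1, 12.4 against 10.4 CPM with aGM-CSF, 14 against 9.93 CPM with aIL2RB and 14 against 10.7 CPM with both. Within isotype tumors alone the difference was -1.48 (SE 0.36, edgeR adjusted p = 0.0276, n = 2 and 3), where 1.02% of genes passed (172 genes, and 46, 49, 69 and 56 without isotype replicate 1, 2, 3 or 5). That call was lost without isotype replicate 1 (-1.52, adjusted p = 0.163), replicate 2 (-1.44, 0.14), replicate 3 (-1.40, 0.12) or replicate 5 (-1.39, 0.118), in the same edgeR test. In the other groups the differences were -0.75 (aPD1), -0.25 (aGM-CSF), -0.50 (aIL2RB) and -0.40 (both), with edgeR adjusted p of 0.149 to 0.684, where 0.248%, 0.661%, 15.9% and 14.9% of genes passed.

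The comparisons with isotype were therefore also made within each set. In the first set Ip6k3 was lower after aPD1 than after isotype by -1.44 on the log2 scale, and in the second by -0.70. For Kcne3 these values were -1.29 (-2.03 to -0.56) and -1.62 (-2.30 to -0.94). Against isotype, Ip6k3 in the first set was at -0.37 with aGM-CSF, -0.19 with aIL2RB and -0.19 with both (edgeR adjusted p of 0.789 to 0.81). In the second set it was higher by 0.86, 0.80 and 0.90, of which only the last passed (edgeR adjusted p = 0.0443). Of all genes 0.0118%, 3.93% and 3.64% passed in the first set and 0%, 1.23% and 11.4% in the second. The differences between the sets were 1.23, 0.98 and 1.08 and did not pass (edgeR adjusted p of 0.932, 0.377 and 0.226). Apbb1 had values of opposite sign between sets in the groups given aIL2RB, -0.44 with aIL2RB and 0.29 with both, neither past the threshold. The difference of these differences was 0.73 (SE 0.25, edgeR p = 0.00529, adjusted p = 0.107), where 1.94% of genes passed. These 329 genes were 27 without aPD1 + aIL2RB replicate 9 and 779 without aPD1 + aGM-CSF + aIL2RB replicate 10, the lowest and highest count with a tumor left out. Of 24 such differences over the members and the comparisons without aPD1 alone, 0 passed after adjustment in edgeR and 4 had an unadjusted p under 0.05. For all genes, the share that passed was 0%, 0.0236% and 1.10% with isotype as the baseline, in the order above. With aPD1 + aGM-CSF as the baseline it was 0% with aIL2RB and 0.821% with both.

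**Figure D3:**
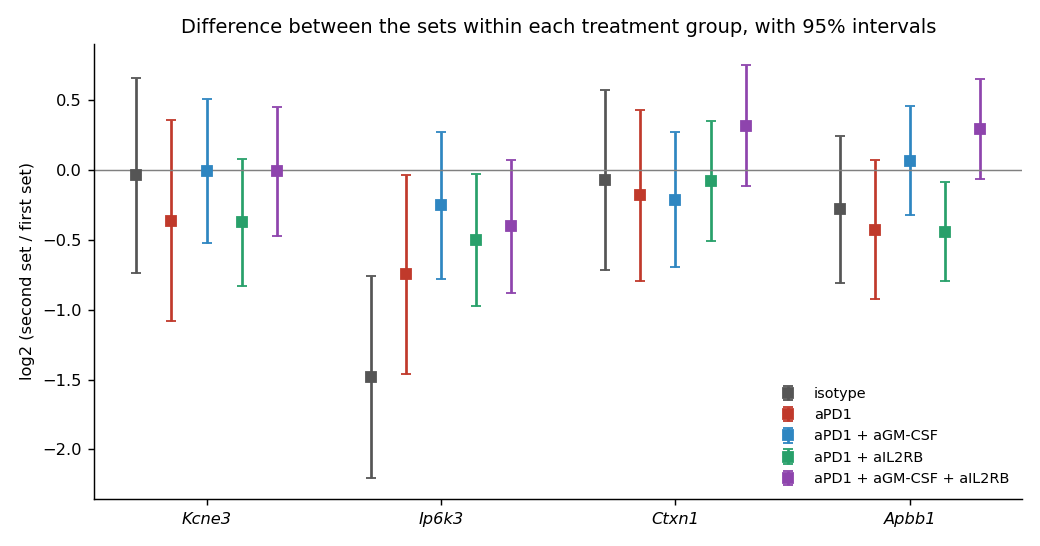
Log2 difference between the second and the first set (y axis) of each member (x axis) within each treatment group, with 95% intervals as bars. Ip6k3 lies below 0 in every group, from -1.48 in isotype to -0.25 with aGM-CSF.

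Whether the members varied together from tumor to tumor was measured on deviations of log2 CPM from the means of group and set, so that neither treatment nor set contributes. These deviations include isotype and blockade tumors that also entered the choice of the genes. Of 6 pairs, Ip6k3 and Ctxn1 were related (Pearson r = 0.479, permutation p = 0.00606, adjusted p = 0.0364). Spearman's rho was 0.411 (adjusted permutation p = 0.0661), and r without the 2 tumors farthest from the median was 0.436. With group means alone taken off, r was 0.352 (adjusted permutation p = 0.126). Leaving out single tumors gave r of 0.327 to 0.566. Without aPD1 + aIL2RB replicate 9, in which both genes were low (3.13 and 2.37 CPM), r was 0.327 (adjusted permutation p = 0.261), and 7 other tumors also took the adjusted p above 0.05. The other 5 pairs had r of -0.031 to 0.277 and adjusted permutation p of at least 0.484.

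Markers of other cell types were set beside the members, as the summed CPM of short lists. For scale, 8.71% of all genes were called in either direction between aPD1 and isotype tumors, and 13.5%, 27.4% and 27.4% between aPD1 and the groups with aGM-CSF, aIL2RB and both. All 5 leukocyte genes (Ptprc, Coro1a, Cd52, Laptm5 and Cd53) rose from isotype to aPD1 tumors and fell from aPD1 in each blockade group (edgeR adjusted p under the threshold of 0.05, median log2 fold change 0.74 with aPD1 and -0.81, -1.09 and -0.98 from it, where medians of all genes were -0.00, 0.01, 0.00 and 0.01). Their sum was 522 to 612 CPM in isotype, 705 to 1270 CPM in aPD1, 517 to 688 CPM with aGM-CSF, 374 to 641 CPM with aIL2RB and 343 to 1005 CPM with both. The members thus were low in the group in which these genes were high. In bulk tumors, fewer cells of a type and less RNA per cell cannot be told apart, and the part of this makeup in the group differences was not tested.

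Within groups and sets, Kcne3 was lower where the leukocyte sum was higher (r = -0.651, adjusted permutation p = 0.0147 over 44 relations of members and lists, rho = -0.510, adjusted p = 0.0417). These relations were computed after the values had been seen. At the end of this relation lay replicate 1 of the group given both blocking antibodies, with 2.57 CPM of Kcne3, the lowest outside the aPD1 group, and a leukocyte sum of 1005 CPM, the highest outside it. Without this tumor r was -0.498 (adjusted permutation p = 0.115), and without the 2 tumors farthest from the median it was -0.505. The adjusted p was also above 0.05 without aPD1 + aIL2RB replicate 3 (r = -0.621, p = 0.0535) or aPD1 + aGM-CSF + aIL2RB replicate 4 (r = -0.639, p = 0.0543), by the same permutation test. For myeloid markers r was -0.599 (adjusted permutation p = 0.0147), and -0.454 (adjusted p = 0.115) without the same replicate 1. For T and NK cell markers r was -0.539 (adjusted permutation p = 0.0377, rho = -0.393 with adjusted p = 0.273), and -0.393 (adjusted p = 0.242) without that tumor. This relation passed in 20 of the 42 runs that left out a tumor. With group means alone taken off, r was -0.558 for the leukocyte sum (adjusted permutation p = 0.0268), -0.443 for myeloid markers (adjusted p = 0.0964) and -0.320 for T and NK cell markers (adjusted p = 0.276), so the last 2 did not pass.

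**Figure D4:**
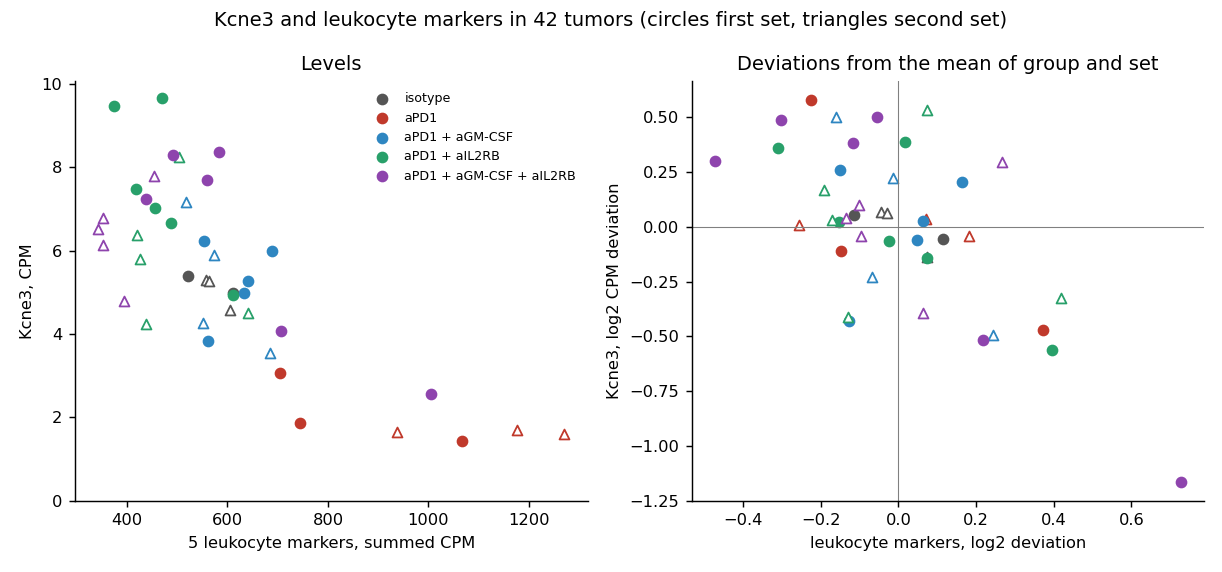
Kcne3 (y axis) against the summed level of 5 leukocyte genes (x axis) in each of the 42 tumors, colored by treatment group, as CPM on the left and as log2 deviations from the means of group and set on the right. On the left the aPD1 tumors hold the lower right, and 1 tumor given both blocking antibodies, at 1005 CPM of leukocyte genes and 2.57 CPM of Kcne3, lies among them.

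Ip6k3 and Ctxn1 followed other lists. Ip6k3 was lower where adipocyte genes were higher (r = -0.501, adjusted permutation p = 0.0367, rho = -0.476 with adjusted p = 0.0417). Without aPD1 + aIL2RB replicate 9 this r was -0.383 (adjusted permutation p = 0.337), and it passed in 28 of the 42 runs that left out a tumor. Ctxn1 was higher where fibroblast genes were higher (r = 0.494, adjusted permutation p = 0.048), which passed in 11 of those runs. Without aPD1 + aGM-CSF + aIL2RB replicate 4 neither relation passed (adjusted permutation p = 0.0547 for Ip6k3 and 0.0957 for Ctxn1). With group means alone taken off, the relation of Ip6k3 with adipocyte genes had r of -0.670 (adjusted permutation p = 0.00044), and that of Ctxn1 with fibroblast genes 0.341 (adjusted p = 0.103). In that form Ip6k3 also passed with colon epithelium (r = -0.710, adjusted permutation p = 0.00044) and with fibroblast genes (r = 0.518, adjusted p = 0.0424), and the difference of Ip6k3 between the sets then enters the relation. Within groups and sets the other 39 relations did not pass. No relation of Apbb1 with the 11 lists passed. Between isotype and aPD1, none of 5 adipocyte genes passed (median log2 fold change 0.49), and of 7 fibroblast genes 1 rose and 1 fell (median -0.14). Of 8 myeloid genes 5 rose (median 0.62), and none of 8 T and NK cell genes passed (median 0.97). Of 6 endothelial genes 2 rose, of 5 keratinocyte genes 1 rose, and none of 4 Schwann cell genes passed. From aPD1 to the groups with aGM-CSF, aIL2RB and both, 2, 4 and 5 of the 7 fibroblast genes rose and 0, 2 and 0 fell (medians 0.32, 0.79 and 0.80). Of the 8 T and NK cell genes 1, 7 and 8 fell (medians -1.26, -3.43 and -2.58), and of the 8 myeloid genes 6, 6 and 5 fell (medians -0.72, -0.77 and -0.81). Of the 5 keratinocyte genes 1, 1 and 3 fell (medians -1.95, -0.61 and -2.86), of the 4 Schwann cell genes 1 fell in each group (medians -0.28, -0.39 and -0.31), and of the 6 endothelial genes 0, 2 and 2 rose (medians 0.02, 0.18 and 0.36). None of the 5 adipocyte genes passed from aPD1, with a median of -1.45 with aIL2RB, the lowest of the 3. The part of these lists in the differences of the members was not tested.

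Skeletal muscle genes bear on Ip6k3, which muscle expresses. From isotype to aPD1 tumors 14 of 16 muscle genes rose (median log2 fold change 4.06 against -0.00 over all genes), while Ip6k3 was lower. From aPD1 to the groups with aGM-CSF, aIL2RB and both, 0, 12 and 2 of the 16 fell and 0 rose in each (medians -1.62, -2.52 and -1.78). Their sum was 6.37 to 91.9 CPM in isotype and 9.77 to 1453 CPM in aPD1 tumors. Within groups and sets Ip6k3 and the muscle sum had r of 0.268 (adjusted permutation p = 0.486), and with group means alone taken off 0.463 (adjusted p = 0.0341). Of 14 neuronal genes, which bear on Ctxn1 and Apbb1, 6 could be tested and none passed between aPD1 and isotype. From aPD1, Gap43, a protein of growing axons, rose by 0.92, 0.86 and 0.80 with aGM-CSF, aIL2RB and both (edgeR adjusted p = 0.0113, 0.00644 and 0.0119), and Tubb3, a neuronal tubulin, fell by 0.96 with aIL2RB and with both (adjusted p = 0.000456 and 0.00053). Of 10 genes of colon epithelium, which uses Kcne3, 6 could be tested and none passed between aPD1 and isotype, and their sum was 8.07 to 23.3 CPM in isotype and 7.14 to 29.7 CPM in aPD1 tumors. From aPD1, 0, 1 and 2 of the 6 fell with aGM-CSF, aIL2RB and both (medians -1.02, -0.95 and -1.87). The epithelial cadherin Cdh1 fell by 1.2 with aIL2RB and by 1.58 with both (edgeR adjusted p = 0.000447 and 1.69e-05), and the epithelial adhesion protein Epcam fell by 2.08 with both (adjusted p = 0.0395), where Kcne3 was higher than in aPD1. The part of these lists in the differences of the members was not tested. Krt20, Cdx2, Vil1 and Cldn7, which mark this epithelium, were not among the genes tested.

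Per kb of merged exons, Kcne3 was the most abundant of the 4 KCNE genes analyzed, at 2.87 CPM per kb in isotype and 1.06 in aPD1 tumors. Kcne4 was at 0.241 and 0.305 CPM per kb, and Kcne1 and Kcne2 were at most 0.00331 and 0.0355 CPM per kb in any group and under the filter. Kcne5, Ctxn2 and Apbb3 were not analyzed here. Kcne4 differed by 0.35 between aPD1 and isotype (log2 scale, edgeR adjusted p = 0.599). The pore subunit Kcnq1 was at 0.574 CPM per kb in isotype and 0.486 in aPD1 tumors. It rose from aPD1 by 0.82 with aIL2RB (log2 fold change, SE 0.25, edgeR adjusted p = 0.0109) and by 0.69 with both antibodies (SE 0.25, edgeR adjusted p = 0.0339), but its values of -0.24 against isotype and 0.42 with aGM-CSF did not pass. Of 5 pore subunits tested, none passed between aPD1 and isotype. Of 7 genes of epithelial chloride secretion tested, 1 rose and 0 fell between isotype and aPD1 (median log2 fold change 0.11). From aPD1, 2, 2 and 3 of them fell with aGM-CSF, aIL2RB and both, and 0, 0 and 1 rose (medians -0.055, -0.074 and -0.011). Among these genes Atp1b1, a β subunit of the sodium pump, had the reverse signs of Kcne3. It was 0.84 above isotype in aPD1 tumors without passing (edgeR adjusted p = 0.105) and fell from aPD1 by 1.42, 1.92 and 1.57 with aGM-CSF, aIL2RB and both (edgeR adjusted p at most 0.000873).

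Ip6k3 was the least abundant kinase of its family per kb. In isotype tumors Ip6k1, Ip6k2 and Ip6k3 were at 8.00, 5.56 and 4.2 CPM per kb, and in aPD1 tumors at 8.58, 5.33 and 2.02 CPM per kb. Ip6k1 did not pass in any comparison with aPD1, and Ip6k2 rose from aPD1 by 0.32 with aIL2RB and by 0.31 with both (log2 fold changes, edgeR adjusted p = 0.0141 and 0.0179). Of 18 other genes of inositol phosphate metabolism, 1 rose and 1 fell between isotype and aPD1 (median log2 fold change -0.02). Itpkb, which phosphorylates inositol trisphosphate, rose by 0.57 (SE 0.13, edgeR adjusted p = 0.00591) and fell by 0.50, 0.56 and 0.51 from aPD1 with aGM-CSF, aIL2RB and both. Nudt4, a phosphatase of inositol pyrophosphates, fell by 0.34 (SE 0.08, edgeR adjusted p = 0.00839) and rose by 0.39, 0.34 and 0.31 in the same groups.

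Apbb1 was the less abundant of the FE65 genes analyzed, at 1.04 CPM per kb in isotype and 0.638 in aPD1 tumors, against 9.00 and 9.13 CPM per kb for Apbb2, which did not pass between any blockade group and aPD1. App, whose protein FE65 binds, was at 25.6 and 28.5 CPM per kb and did not pass either. Of 19 other genes of this family and of APP processing, only Enah, an actin regulator that binds FE65, changed between isotype and aPD1, by 0.84 (edgeR adjusted p = 0.0359, median of the list 0.02). From aPD1, 2 rose and 3 fell with aGM-CSF, 4 rose and 4 fell with aIL2RB, and 5 rose and 4 fell with both. Aplp1, an APP homolog, rose from aPD1 by 0.31, 0.44 and 0.34 with aGM-CSF, aIL2RB and both (edgeR adjusted p = 0.0311, 0.000512 and 0.0066). Its difference between aPD1 and isotype was -0.05 (edgeR adjusted p = 0.841). Of the cortexins, Ctxn1 alone passed the filter, at 3.65 CPM per kb in isotype and 2.20 in aPD1 tumors, while Ctxn3 was at most 0.0468 CPM per kb in any group.

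Genes beside the members were measured to see whether their surroundings moved with them. Of the 8 nearest tested genes, only Uqcc2, 10.05 kb from Ip6k3, passed between aPD1 and isotype, by -0.26 on the log2 scale (SE 0.08, edgeR adjusted p = 0.0387). Lipt2 and Pgm2l1 beside Kcne3, Lemd2 beside Ip6k3, Snapc2 and Timm44 beside Ctxn1, and Smpd1 and Trim3 beside Apbb1 did not pass. From aPD1, Uqcc2 rose by 0.26 with aIL2RB and by 0.19 with both, and Pgm2l1 by 0.23 and 0.35 (edgeR adjusted p of 0.000332 to 0.0375). Lemd2 rose by 0.22 with aIL2RB (edgeR adjusted p = 0.0228). Smpd1 ends 0.09 kb from Apbb1 and Timm44 lies 0.46 kb from Ctxn1.

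Genes with the pattern most like each member were sought among 12442 genes with a mean log2 CPM of at least 1, by Pearson r of log2 CPM over the 42 tumors, as a description. Closest to Kcne3 were Igfbp3 (r = 0.877), a binding protein of insulin-like growth factors, Pcdhgc3 (0.866), Plcb3 (0.859), Scrn1 (0.848) and Sept8 (0.842). Igfbp3 also stayed close on deviations from group and set means (0.751), second to Mrps35 (0.752). Closest to Ip6k3 were Sertad4 (0.922), Mmp9 (0.914), a secreted gelatinase, Sec16b (0.885), Col16a1 (0.881), a collagen, and Mxra8 (0.874). Sertad4 (0.849), Mmp9 (0.815) and Col16a1 (0.787) were again among the first 5 on deviations, with Tgfb3 (0.840) and Kansl1l (0.801). Ctxn1 was less like any gene, with Dync2li1 (0.710) and Pik3r2 (0.697) first and no gene shared by the 2 measures. Apbb1 was first with Col7a1 (0.676) and Eps15 (0.661), and Mtf2 (0.633, and 0.599 on deviations) was the gene shared. All these points share libraries and depth.

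Igfbp3 and Sertad4 can be read on the scale of the members. Igfbp3 fell by 0.45 from isotype to aPD1 (SE 0.15, edgeR adjusted p = 0.0477) and rose from aPD1 by 0.65, 0.82 and 0.83 with aGM-CSF, aIL2RB and both, about the order of Kcne3 at smaller size. Sertad4 was at -0.61 against isotype without passing (edgeR adjusted p = 0.0599) and rose from aPD1 by 0.80, 1.05 and 1.03 in the same groups. Both were named for their likeness to the members, so their changes are no separate evidence.

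The tumors had 7155486 to 24101674 counts, and only aPD1 + aGM-CSF + aIL2RB replicate 4 had fewer than 15109228. A group of 5 rRNA genes took 7.096%, 3.922%, 8.548%, 1.717% and 6.712% of the counts of isotype tumors and 11.77%, 7.255%, 4.569%, 7.339%, 17.94% and 10.67% of those of aPD1 tumors. With aGM-CSF the share was 3.072% to 10.92%, with aIL2RB 3.436% to 12.03% and with both 2.858% to 12.56%. The 3 highest aPD1 tumors were above every isotype tumor, the ranges overlap, and the part of this share in the members' differences was not tested. No pair of tumors agreed within sampling noise (the lowest chi-square statistic over its degrees of freedom was 5.68). Of 11 glucocorticoid-responsive genes, Pdk4 rose by 2.21 from isotype to aPD1, and Ddit4 and Mt2 fell by 0.75 and 0.49 (edgeR adjusted p of 0.0055 to 0.0158). The other 8 did not pass, and the median of the list was 0.03. From aPD1, 2, 3 and 2 of the 11 rose with aGM-CSF, aIL2RB and both, and 2 fell in each (medians -0.162, 0.055 and 0.094).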

How the data were processed

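RNA of 42 tumors was sequenced after poly(A) selection. The authors mapped reads with Bowtie 1.2.3 to transcriptomes of the Collaborative Cross founder strains (GRCm38, mm10) made with g2gtools, and estimated counts with gbrs. The deposited values are expected counts per gene, summed over haplotypes and not normalized, of which 15.2% are not whole because shared reads are divided.

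Counts were rounded and genes kept by filterByExpr (minimum count 10, minimum total 15). All 42 tumors were fitted in 1 model with edgeR 4.0.16 in R 4.3.3 (TMM normalization, quasi-likelihood test), with Benjamini-Hochberg adjustment over 16932 genes in each comparison and a threshold of 0.05. DESeq2 1.42.0 was an alternative, as were other normalizations, filters, fits and tumors left out. Log2 CPM used a prior count of 2. Relations used two-sided permutation tests within group and set (100000 draws, or 20000 where each tumor was left out in turn), and marker sums a pseudocount of 1 CPM. Python 3.11.15 was used with numpy 2.4.6, pandas 2.3.3 and matplotlib 3.10.9.

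The members and gene lists were chosen with earlier results of these data known. Named genes are the members, their families, their nearest tested neighbors, the 5 genes most like each member by either measure, and up to 4 passing genes of a list. Procedures were tested on simulated data. Of the 26811 identifiers, 26629 have a symbol in the annotation used. Precision is limited by 5 isotype and 6 aPD1 tumors. Some genes of the lists are not reported here.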

Additional observations from a re-analysis of the deposited data

Results flagged for a closer look

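Among 12 sets of 5, 6 or 9 tumors (4 members in 3 groups), 2 held a tumor far from the rest of its group by Dixon's ratio, of which chance gives about 1 in 20. Kcne3 was at 3.06 CPM in aPD1 replicate 2, where the next highest aPD1 tumor had 1.86 CPM (gap over range 0.735, critical value 0.625). This tumor also had the lowest sum of leukocyte genes of its group, at 705 CPM, and their relation in it was not tested. Without it the log2 fold change of Kcne3 between aPD1 and isotype was -1.63. Ctxn1 was at 1.8 CPM in aPD1 replicate 5, where the next lowest had 2.64 CPM (gap over range 0.642).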

How the results depend on the processing

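Under the alternatives tried, no direction of a called value was reversed. Of the log2 fold changes of Apbb1 between aPD1 + aGM-CSF + aIL2RB and aPD1 (0.52), those within the first and second set were 0.19 and 0.91. Ip6k3 between the same group and isotype (0.35) was 0.90 within the second set (edgeR adjusted p = 0.0443). The replicate numbers did not pair the tumors: same-numbered tumors of 2 groups had correlations of deviations of -0.168 to 0.193, and no comparison had all pairs above 0.1. With the replicate number as a block, the set difference of Ip6k3 (-0.57) was -0.97 (edgeR adjusted p = 0.0814), and no other call of a member changed under the block. The cause was not tested. The relation of Ip6k3 and Ctxn1 (0.479) was 0.352 with group means only (adjusted permutation p = 0.126), and ranged from 0.327 to 0.566 with single tumors left out, where 8 of 42 runs, all 20000 draws, missed the threshold.

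Leaving out each of the 42 tumors changed no call of a member in the comparisons of groups or of the sets over all groups. The log2 fold change between aPD1 and isotype ranged from -1.63 to -1.38 for Kcne3 and from -1.27 to -0.80 for Ip6k3. That of Ip6k3 against isotype with aGM-CSF (0.23) ranged from 0.06 without isotype replicate 5 to 0.49 without isotype replicate 2. Counts of genes moved more than the members: between aPD1 and isotype 1475 genes passed, 10 within the first set, 2199 within the second and 667, 755 and 975 without aPD1 replicate 4, isotype replicate 4 or aPD1 replicate 6. Between aPD1 + aGM-CSF and aPD1 2289 passed, 1199 without aPD1 replicate 4, 99 within the first set and 2891 within the second. Within the first set the 4647 genes between aPD1 + aIL2RB and aPD1 were 3091, and the 4634 between the group given both antibodies and aPD1 were 1321. Under the block 2235 genes passed between aPD1 + aIL2RB and isotype (542 without it), 3941 between the group given both antibodies and isotype (1726 without it), 914 between that group and aPD1 + aGM-CSF (360 without it) and 89 between the sets (4252 without it). With library size only, the share of higher genes between aPD1 and isotype was 39.6% in place of 70.8%. Depth limits the members to 15 to 412 counts per tumor.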
